A study of Mus musculus with 16 samples.

Results

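The histone cluster genes code for the linker histone H1 and the core histones H2a, H2b, H3 and H4. They were taken as every gene that the array design names Hist1h to Hist4h, and each was read from its brightest probe among the probes that stood well above background on 4 or more of the 16 arrays. Of 49 such genes with 57 probes, 48 were measured, among 24542 genes tested in all. These were 6 genes of H1, 14 of H2a, 11 of H2b, 8 of H3 and 9 of H4. By probe position, 37 lay on chromosome 13, 8 on chromosome 3, 2 on chromosome 11 and 1 on chromosome 6. Nearest inside the threshold was Hist1h2bb, above background on 5 arrays, and the gene left out, the pseudogene Hist3h2bb-ps, was above background on 0.

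All 16 mice were ApcMin/+, which means that they carried the Min allele of Apc, a gene whose loss starts intestinal tumours, and macroscopically tumour-free colon was taken from each at day 28. The 4 Sham mice drank water alone. The 6 Control mice had 1.5% dextran sulphate sodium (DSS), which injures the colon lining, in their water for 3 days, and received saline. The 6 5-ASA mice had the same DSS course and received 5-aminosalicylic acid (5-ASA), an anti-inflammatory drug. The labels disagree on the route: 1 text gives saline or 5-ASA into the colorectum for 28 days, and another gives plain or 5-ASA-containing drinking water for the 25 days after DSS. Neither age nor sex was among the labels used here. Bulk tissue was measured, so fewer cells of a type and less RNA per cell cannot be told apart.

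Most histone genes of the clusters are switched on as cells copy their DNA, because new nucleosomes need new histones. Their mRNAs have no introns and end in a short stem-loop that is bound by the stem-loop binding protein Slbp, in place of a poly(A) tail. Some cluster genes, such as Hist1h1c, Hist1h2bc and Hist2h2be, are known to make polyadenylated transcripts as well, also in cells that have stopped dividing. In the colon, dividing cells lie mainly in the lower crypt, and the labelling kit named in the labels primes cDNA from poly(A) tails.

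Probe sequences are shown first because they decide which transcripts each value can come from. The probes of 7 H2a genes lie at the end of the coding region and share runs of at least 25 bases with the probe of Hist1h2ah, so their signals may partly come from each other's mRNA and they are not independent readings. In the lines that follow, capitals in Hist1h2ah mark its stop codon, and capitals in the others mark the longest run shared with Hist1h2ah.
Hist1h2ah: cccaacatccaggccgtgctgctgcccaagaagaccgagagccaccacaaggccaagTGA
Hist2h2ac: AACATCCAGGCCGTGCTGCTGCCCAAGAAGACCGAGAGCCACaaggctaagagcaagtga
Hist1h2af: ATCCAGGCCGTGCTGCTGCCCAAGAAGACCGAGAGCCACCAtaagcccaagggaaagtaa
Hist1h2ak: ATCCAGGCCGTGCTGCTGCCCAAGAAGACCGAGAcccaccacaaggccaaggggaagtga
Hist2h2aa2: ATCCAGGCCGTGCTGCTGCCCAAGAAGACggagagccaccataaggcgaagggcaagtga
The shared runs are 42 bases for Hist2h2ac, 41 for Hist1h2af, 39 for Hist1h2ag, 34 for Hist1h2ak, 30 for Hist1h2an and 29 for Hist2h2aa2. Outside this set, Hist1h3c and Hist1h3f shared a run of 36 bases. The 16 pairs with a run of at least 25 bases all lay among these 9 genes, and 0 H4 genes had one.

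Other probes reach past the stop codon into the stem-loop itself. A stem of 6 bases beginning with GG, with a loop of 4 bases beginning with T, was found in 6 of 57 member probes and in 10 of 55624 other probes. Capitals mark the paired arms.
Hist1h3a, Hist1h3i, Hist2h2bb and the second probe of Hist2h2aa2: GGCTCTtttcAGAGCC
Hist1h3g: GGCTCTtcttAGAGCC
Hist1h4m: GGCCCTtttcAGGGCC
Still other probes lie beyond the usual end of a stem-loop mRNA. The probe of Hist1h2be begins 2375 bases into its transcript record and that of Hist3h2ba 551 bases into its own, and both hold a poly(A) signal, AATAAA or ATTAAA, in capitals here.
Hist1h2be: ctgttcattATTAAAgcattcctg
Hist3h2ba: aatggtattAATAAAtttggttca
One of the 2 signals was present in 5 of 57 member probes and in 13.7% of 55624 other probes. The start of a probe is counted from the first base of the record it was designed on, and some records begin at the start codon.

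Each of the 2 slides carried 2 Sham arrays, 3 Control arrays and 3 5-ASA arrays. The upper row of arrays held every Sham mouse with Control 1, 2, 4 and 5, so Sham and 5-ASA shared no row, and only the Control mice, which lay in both, link the rows. Per array, 59.8% to 65.2% of probes were well above background in the upper row and 53.0% to 57.7% in the lower one, and 0 spots were saturated. The number of mice limits the precision, with a median standard error of 0.21 for a member's log2 difference between Control and Sham. The labels give biological replicates, 1 mouse per array. Summed signals of 8 epithelial markers ranged from 9.85 to 10.14 over the 16 mice. This level, like every level given here, is the log2 intensity less the 75th percentile of its own array. Sham 3, Control 3, Control 4, 5-ASA 1 and 5-ASA 2 stood apart in the member values. Class, list and named-gene differences were therefore also computed without them, a choice made after the data were seen, and a selection is given beside the results.

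No histone gene differed between any 2 groups after adjustment over all genes, by limma with Benjamini-Hochberg adjustment. The smallest adjusted p of a member was 0.558 between Control and Sham, 0.999 between 5-ASA and Control, and 0.334 between 5-ASA and Sham. Over all genes tested, 0.0570%, 0% and 0.0570% were called in those comparisons. The direction was nonetheless shared by many members. Means were higher in Control than in Sham for 31 of 48 members, higher in 5-ASA than in Control for 45 of 48, and higher in 5-ASA than in Sham for 42 of 48, where 50% of all genes were higher in each comparison. The median log2 difference over the members was 0.22, 0.32 and 0.48, and that over all genes was within 0.01 of 0 in each.

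**Figure D1:**
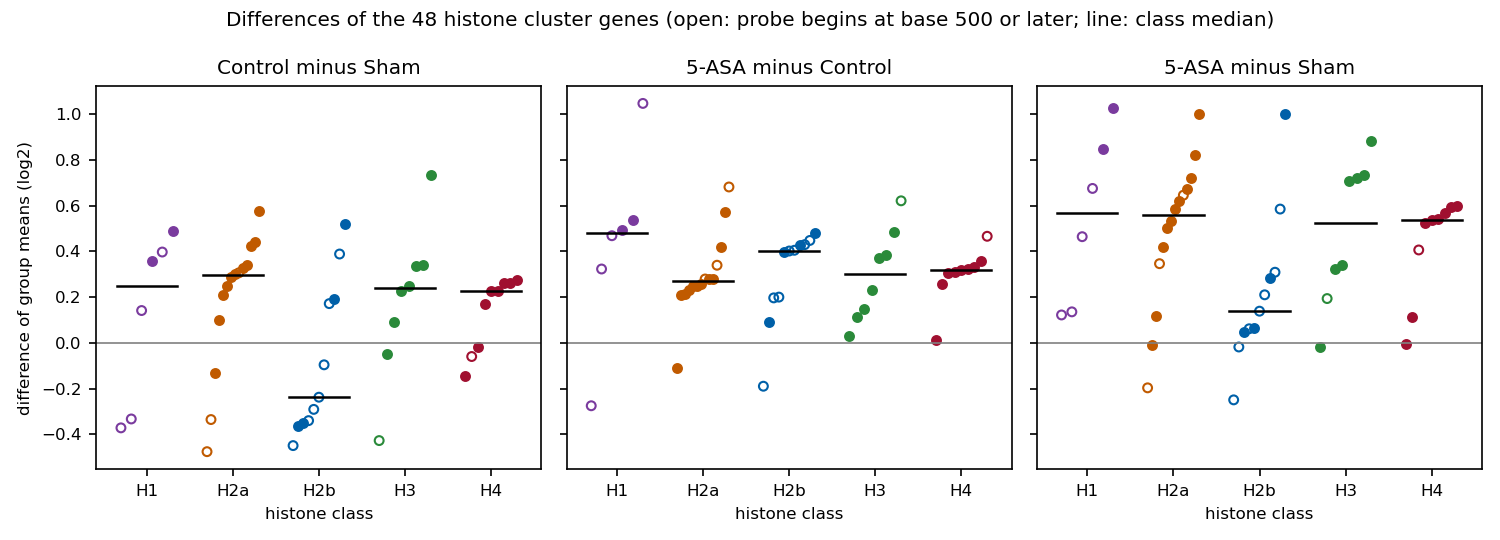
Log2 difference of group means (vertical axis) for each of 48 histone cluster genes, in columns by histone class, for Control minus Sham, 5-ASA minus Control and 5-ASA minus Sham; black lines are class medians and open symbols are genes whose probe begins at base 500 or later of its transcript record. Class medians for Control minus Sham lie between 0.23 and 0.30 except for H2b, at -0.24, where most symbols are open.

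At an unadjusted p under 0.05, 3 of 48 members passed for Control against Sham, against 8.91% of all genes. These were Hist1h3g, higher in Control, and Hist3h2a and Hist3h2ba, lower in Control. For 5-ASA against Control 9 of 48 passed, all higher in 5-ASA, where 4.10% of all genes passed in either direction and 1.43% were higher. For 5-ASA against Sham 25 of 48 passed, all higher in 5-ASA, where 11% of all genes passed in either direction and 6.06% were higher. Every Control mouse lay above every Sham mouse in 9 of 48 members, against 2.66% of all genes. Those 9 were Hist1h2ab, Hist1h2af, Hist1h2ag, Hist1h2ah, Hist1h2ak, Hist1h2an, Hist2h2ac, Hist1h4k and Hist4h4, and 6 of them belong to the H2a set with shared probe runs. In 5-ASA against Control and 5-ASA against Sham, 0 of 48 members had all 5-ASA mice higher, where 0.0244% and 1.06% of all genes did.

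These counts depended on single mice. At an unadjusted p under 0.05, 0 members were higher and 0 lower in Control than in Sham without Sham 3, whereas 7 were higher and 2 lower without Sham 4, and 1 was higher and 6 lower without Control 1. Of all genes, 3.08%, 3.82% and 6.92% were higher in those 3 settings. Leaving out Control 5 or any of 5-ASA 1 to 4 gave 2 to 4 higher and 2 to 4 lower, where 5.23% to 7.15% of all genes were higher. The median of Control against Sham was 0.08 without Sham 3. The 9 members with no overlap became 14 without Sham 4, against 3.7% of all genes. The 9 members higher in 5-ASA than in Control became 3 without Control 3, 5 without 5-ASA 1, 5 without 5-ASA 2, 21 without 5-ASA 3 and 20 without 5-ASA 4. The shares of all genes in these settings, in the same order, were 0.786%, 1.75%, 1.11%, 1.84% and 1.75%. Without Sham 4, 14 members had all 5-ASA mice above all Sham mice, against 1.98% of all genes. Without 5-ASA 1 and 5-ASA 2, an alternative chosen after the data were seen because they stood highest, the 9 became 3 and the median difference 0.05, with 35 of 48 members higher. Beside those 3 members, 2.34% of all genes passed as higher without these mice. The 5-ASA against Control class medians without them were 0.13 for H1, 0.014 for H2a, 0.33 for H2b, 0.0097 for H3 and 0.04 for H4. For 5-ASA against Sham the 25 became 17, against 3.5% of all genes, and the median 0.24. For Control against Sham without 5-ASA 1 and 5-ASA 2, 12 members rather than 1 passed as higher, and 2 as lower. Of all genes, 7.4% were then higher. The differences of Control against Sham were unchanged, and the 3 groups share 1 estimate of the spread. Within slide 1 the median difference of 5-ASA against Control was 0.48, and within slide 2, which holds neither of these mice, it was 0.09. With the array row as a covariate, 6 members rather than 25 passed as higher for 5-ASA against Sham. The share of all genes was then 0.892% rather than 6.06%.

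**Figure D2:**
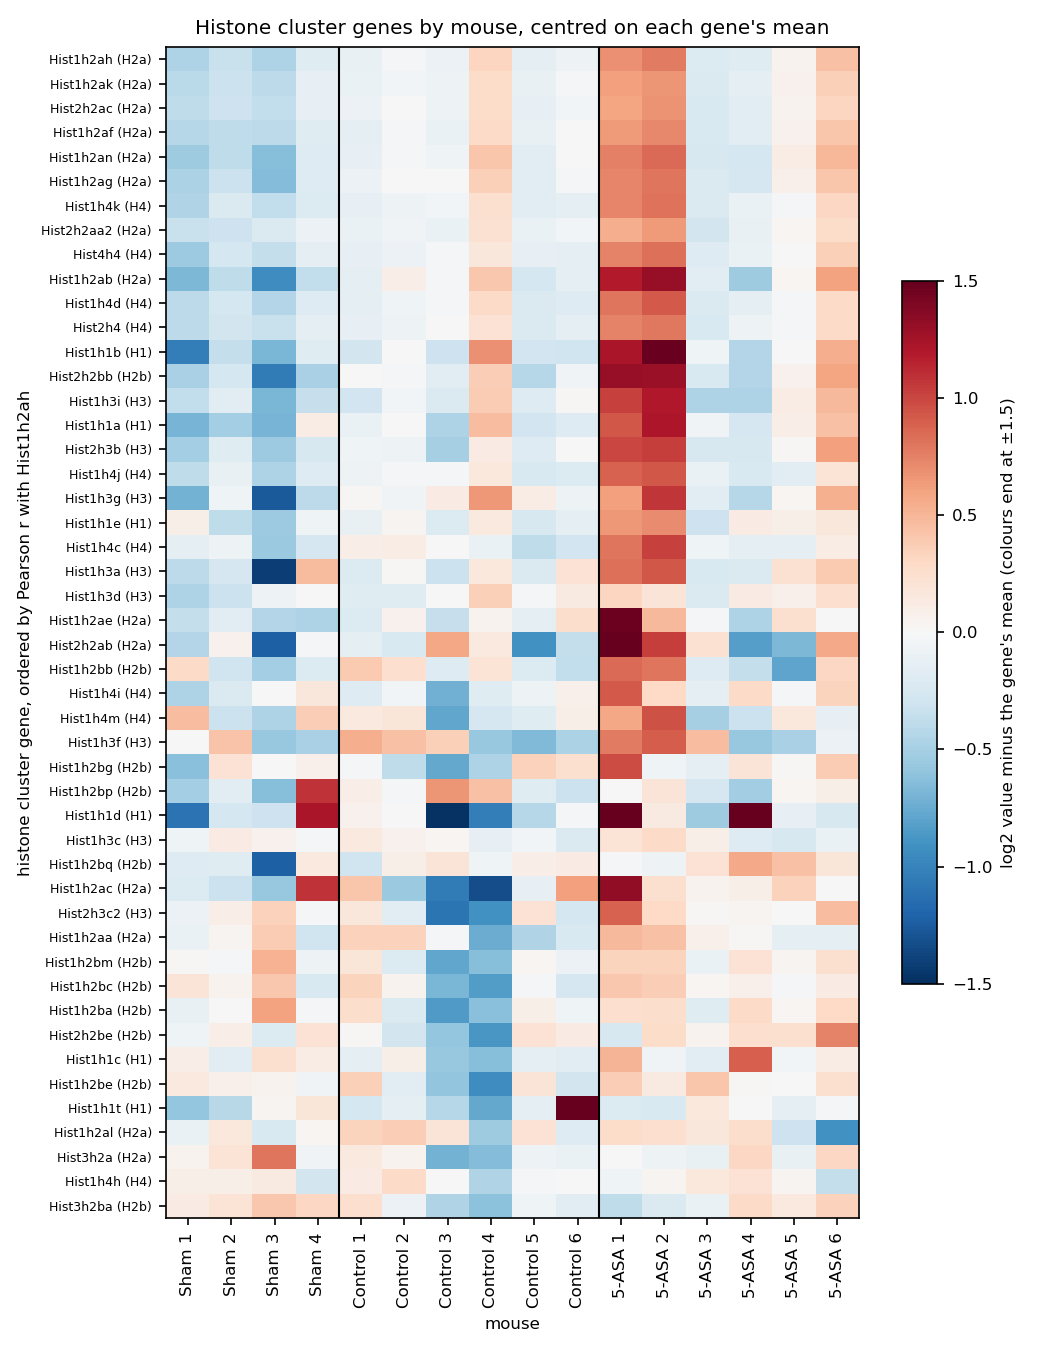
Each row is 1 of 48 histone cluster genes and each column 1 of 16 mice; colour gives the log2 value minus the gene's mean over all mice, with red above and blue below it, and rows run from the highest to the lowest Pearson r with Hist1h2ah. In the upper rows 5-ASA 1, 5-ASA 2 and, less so, 5-ASA 6 and Control 4 are red; in the lower rows Control 3 and Control 4 are blue.

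H1 histones bind the DNA that enters and leaves the nucleosome. The 6 H1 genes split: Hist1h1a, Hist1h1b, Hist1h1e and the testis gene Hist1h1t had higher means in Control than in Sham, and Hist1h1c and Hist1h1d had lower ones. For Hist1h1t the difference was 0.40 with Control 6 and -0.15 without it. Hist1h1b (now H1f5), an H1 of dividing cells, was measured at 0.69, 1.37, 1.04 and 1.55 in the 4 Sham mice. It ranged from 1.43 through a median of 1.45 to 2.42 in Control and from 1.29 through 2.004 to 3.22 in 5-ASA. Control 4, 5-ASA 1 and 5-ASA 2 were the highest of their groups, and the groups overlapped. The log2 difference was 0.49 ± 0.34 (SE) for Control against Sham (adjusted p = 0.678) and 1.03 ± 0.34 for 5-ASA against Sham (adjusted p = 0.334), the latter 0.58 without 5-ASA 1 and 5-ASA 2. Hist1h1a (H1f1) had the same order of means, -2.49 ± 0.38 over the 4 Sham mice, -2.14 ± 0.32 over the 6 Control mice and -1.64 ± 0.58 over the 6 5-ASA mice (mean ± SD).

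Hist1h1c (H1f2), the H1 with a known polyadenylated transcript, had another order. Its probe, at mm9 chr13:23832018-23832077, begins 1342 bases into the record. Sham mice had 4.48, 4.22, 4.62 and 4.49, Control mice from 3.74 through 4.23 to 4.46 and 5-ASA mice from 4.21 through 4.41 to 5.27. Control 3 and Control 4 were lowest and 5-ASA 4 highest. The difference was -0.33 ± 0.20 (SE) for Control against Sham (adjusted p = 0.612) and 0.47 ± 0.18 for 5-ASA against Control (adjusted p = 0.999). Without Control 3 and Control 4 these were -0.16 and 0.30. Hist1h1d spread widely, from -4.75 to -0.82 over all mice, with 5-ASA 1 and 5-ASA 4 above the rest of their group.

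H2a pairs with H2b in the nucleosome core. The median difference of the 14 H2a genes was 0.30 between Control and Sham, 0.27 between 5-ASA and Control, and 0.56 between 5-ASA and Sham, and 11, 13 and 12 of 14 were higher. Hist1h2ah (H2ac12; probe at mm9 chr13:22127035-22127094) gave 6.97, 7.10, 6.97 and 7.25 in Sham. Control ranged from 7.29 through 7.35 to 7.76 and 5-ASA from 7.23 through 7.68 to 8.21. Every Control mouse was above every Sham mouse, whereas 5-ASA 3 and 5-ASA 4 lay just below the Control range. The difference was 0.34 ± 0.18 (SE) for Control against Sham (adjusted p = 0.577) and 0.62 ± 0.18 for 5-ASA against Sham (adjusted p = 0.334), a ratio of means of 1.27 and 1.54. For 5-ASA against Control it was 0.28, and 0.04 without 5-ASA 1 and 5-ASA 2.

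The other H2a genes with shared runs also had higher means in Control than in Sham at these probes, and in all of them but Hist2h2aa2 every Control mouse was above every Sham mouse. Hist1h2ag differed by 0.42 ± 0.20 (SE) between Control and Sham (adjusted p = 0.559), Hist1h2an by 0.72 ± 0.21 and Hist1h2af by 0.59 ± 0.17 between 5-ASA and Sham (adjusted p = 0.334 for both). Hist1h2ab (H2ac4), whose probe begins at base 435 and shares no such run, followed the same mice: Sham gave 3.70, 4.003, 3.45 and 4.01, Control from 4.12 through 4.30 to 4.78 and 5-ASA from 3.85 through 4.70 to 5.69. Its difference was 0.58 ± 0.31 for Control against Sham (adjusted p = 0.571) and 0.9996 ± 0.31 for 5-ASA against Sham (adjusted p = 0.334).

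Hist2h2aa2 (H2ac19) has probes that begin at bases 457 and 569 of its record, and they disagreed. Its coding-end probe differed by 0.21 ± 0.16 (SE) between Control and Sham, and the probe that contains the stem-loop, by -0.33 ± 0.19. The mean of both probes gave -0.06. For Hist1h2ak, by contrast, both probes had positive differences, at 0.30 ± 0.16 for the coding-end probe and 0.49 ± 0.30 for the other. Among the H2a genes lower in Control were Hist3h2a (H2aw) on chromosome 11 and Hist1h2ac. Hist3h2a gave 2.37, 2.52, 3.12 and 2.27 in Sham, from 1.62 through 2.23 to 2.47 in Control and from 2.21 through 2.28 to 2.63 in 5-ASA. Sham 3 was high and Control 3 and Control 4 low, and the difference of -0.48 ± 0.20 (adjusted p = 0.558) became -0.29 without Sham 3 and -0.25 without Control 3 and Control 4. Hist1h2ac differed by 0.68 ± 0.37 between 5-ASA and Control (adjusted p = 0.999), with 5-ASA 1 at -1.33 and the other 5 at -2.33 or below.

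The H2b genes were the class with a negative median for Control against Sham, -0.24, with 4 of 11 higher. Without Control 4 that median was -0.11, and without Control 3 and Control 4 it was -0.026, with 5 of 11 higher. For 5-ASA against Control the H2b median was 0.40, with 10 of 11 higher, and 0.16 without those 2 Control mice, with 11 of 11 higher. Hist1h2bc (H2bc4; probe at mm9 chr13:23784254-23784313, 632 bases into its record), which has a known polyadenylated transcript, gave 6.11, 5.96, 6.32 and 5.68 in Sham. Control ranged from 5.08 through 5.77 to 6.24 and 5-ASA from 5.90 through 6.01 to 6.32. Control 3 and Control 4 were the 2 lowest mice of all 16, and the other 4 Control mice lay within the range of Sham or just below it. The difference was -0.34 ± 0.20 (SE) for Control against Sham (adjusted p = 0.613) and 0.40 ± 0.18 for 5-ASA against Control (adjusted p = 0.999). Without Control 3 and Control 4 the differences were -0.08 and 0.14.

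Hist1h2bm (H2bc14) followed Hist1h2bc although its probe begins 90 bases into the record. It differed by -0.36 ± 0.18 (SE) between Control and Sham (adjusted p = 0.564) and by 0.43 ± 0.16 between 5-ASA and Control (adjusted p = 0.999). Hist1h2be (H2bc6), shown above with its poly(A) signal, gave -1.29, -1.36, -1.38 and -1.49 in Sham, from -2.37 through -1.65 to -1.08 in Control and from -1.43 through -1.25 to -1.02 in 5-ASA, again with Control 3 and Control 4 lowest. Its difference was 0.43 ± 0.18 for 5-ASA against Control (adjusted p = 0.999), and 0.16 without those mice. Hist3h2ba (H2bu2) gave -0.60, -0.52, -0.33 and -0.42 in Sham, from -1.35 through -0.86 to -0.47 in Control and from -1.12 through -0.71 to -0.39 in 5-ASA. It differed by -0.45 ± 0.17 between Control and Sham (adjusted p = 0.558), and by -0.28 without Control 3 and Control 4.

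Hist2h2bb (H2bc18), with the stem-loop in its probe, was the H2b gene with the highest r with Hist1h2ah, 0.96. It gave -0.95, -0.74, -1.51 and -0.95 in Sham, from -0.90 through -0.50 to -0.10 in Control and from -0.90 through -0.14 to 0.84 in 5-ASA. Its difference was 1.00 ± 0.32 (SE) for 5-ASA against Sham (adjusted p = 0.334), with 5-ASA 1 and 5-ASA 2 highest, and 0.57 without them. Hist1h2bq differed by 0.59 ± 0.21 in the same comparison (adjusted p = 0.344), and its probe lies among the outer 12 spot rows of the array. Hist1h2bb was not well above background in any 5-ASA mouse, and no ratio is given for it there.

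H3 and H4 form the tetramer at the centre of the nucleosome. The H3 medians were 0.24 between Control and Sham, 0.30 between 5-ASA and Control, and 0.52 between 5-ASA and Sham. Without Sham 3 the H3 median between Control and Sham was 0.095, with 5 of 8 genes higher rather than 6. Hist1h3g (H3c8), whose probe covers its stem-loop, had the highest difference of any member between Control and Sham. Sham gave -2.90, -2.25, -3.45 and -2.58, Control from -2.26 through -2.12 to -1.54 and 5-ASA from -2.62 through -1.90 to -1.11. Sham 3 was the lowest and Sham 2 overlapped Control. The difference was 0.74 ± 0.28 (SE) for Control against Sham (adjusted p = 0.558), 0.52 without Sham 3, and 0.88 ± 0.28 for 5-ASA against Sham (adjusted p = 0.334).

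Hist1h3d (H3c4) gave 4.21, 4.34, 4.60 and 4.67 in Sham and from 4.49 through 4.65 to 5.02 in Control. It differed by 0.23 ± 0.13 (SE) between Control and Sham (adjusted p = 0.596), and 5-ASA 1 and 5-ASA 2 did not stand out in it, at 4.99 and 4.87 beside 4.45 to 4.92 in the other 4. Hist2h3b (H3c13) differed by 0.48 ± 0.22 between 5-ASA and Control (adjusted p = 0.999), from 0.28 through 0.70 to 0.89 in Control and from 0.53 through 1.09 to 1.81 in 5-ASA. Hist2h3c2, read 957 bases into its record, resembled Hist1h2bc instead: its difference was -0.43 ± 0.25 for Control against Sham (adjusted p = 0.611) and 0.62 ± 0.23 for 5-ASA against Control (adjusted p = 0.999), with Control 3 at -0.45 and Control 4 at -0.26, below every other mouse. Without these 2 mice the differences were -0.10 and 0.29.

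The 9 H4 genes had medians of 0.23, 0.32 and 0.54 in the same order. Hist1h4k (H4c12; probe at mm9 chr13:21842063-21842122) gave 4.88, 5.12, 4.97 and 5.14 in Sham, from 5.17 through 5.24 to 5.58 in Control and from 5.13 through 5.48 to 6.16 in 5-ASA. All Control mice lay above all Sham mice. The difference was 0.26 ± 0.18 (SE) for Control against Sham (adjusted p = 0.679) and 0.57 ± 0.18 for 5-ASA against Sham (adjusted p = 0.334), the latter 0.31 without 5-ASA 1 and 5-ASA 2. Its second probe gave 0.26 ± 0.20 for Control against Sham. Hist4h4 on chromosome 6, outside the large clusters, had 0.27 ± 0.18 and 0.60 ± 0.18 in these comparisons (adjusted p = 0.660 and 0.334). Hist1h4i gave 1.03, 1.28, 1.50 and 1.66 in Sham, from 0.78 through 1.37 to 1.58 in Control and from 1.35 through 1.79 to 2.42 in 5-ASA, with Control 3 lowest and 5-ASA 1 highest. It had 3 probes with differences of -0.06, 0.04 and -0.00064 between Control and Sham, and 0.47 ± 0.18 between 5-ASA and Control for the chosen probe (adjusted p = 0.999). Hist1h4h showed the smallest differences of the class, -0.02 and 0.01.

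**Figure D3:**
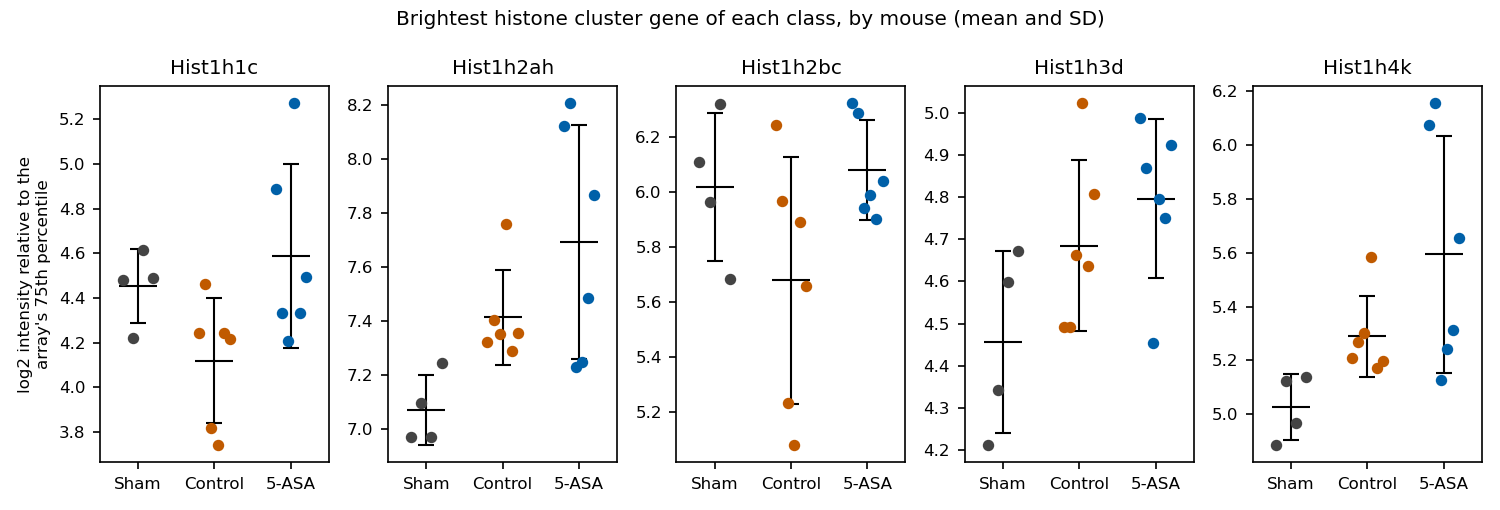
The 5 panels show the member of each class with the brightest probe, Hist1h1c, Hist1h2ah, Hist1h2bc, Hist1h3d and Hist1h4k; points are mice (4 Sham, 6 Control, 6 5-ASA), the vertical axes give log2 intensity less the 75th percentile of its own array, and bars are mean and SD. In Hist1h2ah and Hist1h4k all Control points lie above all Sham points, whereas in Hist1h1c and Hist1h2bc the lowest points are Control mice.

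Many members varied with Hist1h2ah or with Hist1h2bc, the brightest H2a and H2b genes, and the classes differed in how many did. Others had an r of 0.5 or less with both, such as Hist1h2bp (0.34 and -0.53) and Hist1h2bq (0.25 and -0.35). An r over 0.5 with Hist1h2ah was found for 8 of 9 H4, 9 of the other 13 H2a, 5 of 8 H3, 3 of 6 H1 and 2 of 11 H2b genes. Of these 2 H2b genes, Hist1h2bb (r 0.68) was well above background on only 5 of 16 arrays. With Hist1h2bc, an r over 0.5 was found for 5 of the other 10 H2b, 2 of 14 H2a, 1 of 6 H1, 1 of 8 H3 and 0 of 9 H4 genes. Of the non-member genes, 10.8% had an r over 0.5 with Hist1h2ah and 10.9% with Hist1h2bc. Outside H2b the Hist1h2bc counts were at most 2 per class, which is near that share. The H2a count for Hist1h2ah holds every gene that shares a probe run with it, and these are not independent readings. Over the 16 arrays, Hist1h2ah and Hist1h4k had a Pearson r of 0.98 (Spearman 0.96). An r over 0.9 with Hist1h2ah was found for 146 of 24494 non-member genes and for 17 of the other 47 members. Apart from the H2a genes with shared runs these were Hist1h1a, Hist1h1b, Hist1h2ab, Hist1h3i, Hist2h3b, Hist2h2bb, Hist1h4d, Hist1h4j, Hist1h4k, Hist2h4 and Hist4h4. Hist1h2bc had an r of 0.06 with Hist1h2ah (Spearman 0.02), -0.01 after removing group means and -0.46 without 5-ASA 1 and 5-ASA 2. Its own r was 0.92 with Hist1h2bm, 0.89 with Hist2h3c2, 0.87 with Hist1h2be, 0.86 with Hist1h2ba, 0.79 with Hist3h2a and 0.65 with Hist1h1c. These values describe 16 arrays that share slides and groups, and they carry no test.

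**Figure D4:**
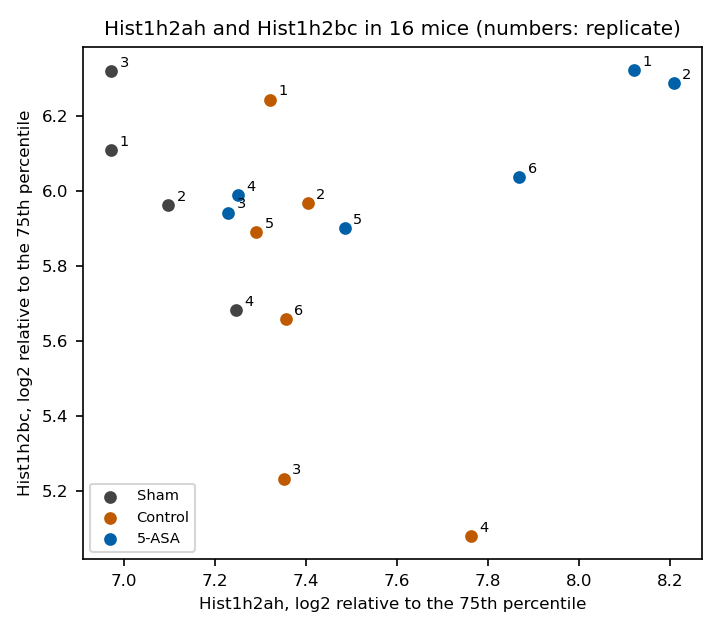
Each point is 1 of 16 mice, labelled with its replicate number, with Hist1h2ah on the horizontal and Hist1h2bc on the vertical axis, both as log2 intensity less the 75th percentile of the same array. 5-ASA 1 and 5-ASA 2 are highest on the horizontal axis, at 8.12 and 8.21, and Control 3 and Control 4 lowest on the vertical axis, at 5.23 and 5.08.

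The position of the probe along the transcript went with the r with Hist1h2ah, and only in part with that with Hist1h2bc. Position itself differed between classes, with 8 of 9 H4 and 4 of 11 H2b probes beginning early. Probes of 32 members began before base 500 and those of 16 at base 500 or later, a dividing line set after the values were seen and given as a description. The median r with Hist1h2ah was 0.95 for the early probes, 25 of which had an r over 0.5 (Hist1h2ah itself among them), and 0.24 for the late ones, 3 of which did. The 3 were Hist1h2ae, Hist1h1e and Hist1h4i. All 7 H2a genes with shared probe runs, which are not independent readings, are among the 25. The median r with Hist1h2bc was 0.12 for the early probes and 0.49 for the late ones, Hist1h2bc itself included. Of the 16 late ones, 7 had an r over 0.5 with Hist1h2bc (itself among them). The early probes with such an r were those of Hist1h2bm, Hist1h2ba and Hist1h2aa. Between Control and Sham, 26 of 32 early-probe members and 5 of 16 late-probe members had a higher mean in Control, with medians of 0.26 and -0.26. Between 5-ASA and Control the counts were 31 of 32 and 14 of 16, with medians of 0.29 and 0.40.

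**Figure D5:**
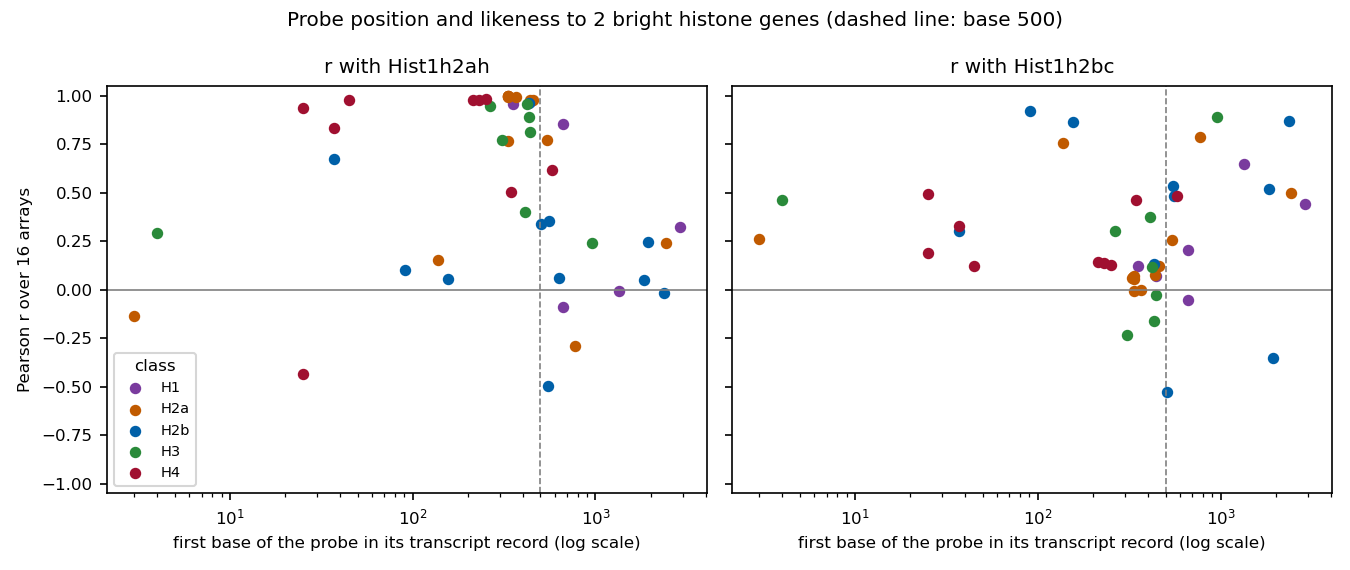
Each point is a histone cluster gene, coloured by class; the horizontal axis is the first base of its probe in the transcript record on a log scale and the vertical axis is Pearson r over 16 arrays with Hist1h2ah (left) and Hist1h2bc (right). Left of the dashed line at base 500, r with Hist1h2ah has a median of 0.95, and right of it 0.24. The probes of the H2a genes with shared runs all begin before base 500.

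The mice that stood out differed in part between the 2 sets. Per mouse, the median of the early-probe members, each centred on its mean, was 0.74 in 5-ASA 1, 0.82 in 5-ASA 2 and 0.32 in 5-ASA 6, and from -0.20 to 0.03 in the other 5-ASA mice. It was from -0.46 to -0.18 in Sham and from -0.17 to 0.22 in Control. The late-probe median was -0.59 in Control 3 and -0.65 in Control 4, and from -0.07 to 0.04 in the other Control mice. Control 4, lowest here, was the highest Control mouse in the early-probe set. In 5-ASA 1 the late-probe median was 0.46, again high and here the highest of the 16 mice. It was 0.17 in 5-ASA 2, 0.18 in 5-ASA 6 and from -0.06 to 0.16 in the other 5-ASA mice, beside -0.17 to 0.13 in Sham. Without Control 3 and Control 4, 9 of 16 late-probe members were higher in Control than in Sham, with a median of 0.01, and the early-probe median was 0.20. Without 5-ASA 1 and 5-ASA 2 the early-probe median of 5-ASA against Control was 0.03 and the late-probe median 0.33. Within slide 1 and slide 2 the early-probe median of Control against Sham was 0.25 and 0.26 and the late-probe one -0.16 and -0.29.

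Promoters from RefSeq (GRCm38.p6, 250 bases before to 50 after each start) matched 41 of 48 members. They are shown as a description, and their part in the likeness to Hist1h2ah or Hist1h2bc was not tested. Hist1h2bc was not among the 41. Motifs were searched on both strands as written: the CCAAT box (CCAAT), the TATA box (TATAAA), the octamer of H2a and H2b genes (ATTTGCAT), the H1 box (AAACACA), the H4 core (GGTCCG) and an E2F site (TTTCGCGC or TTTGGCGC). In 1 of the 41 promoters motifs of different kinds shared a base. The H1 box was in 5 of 6 H1 promoters and 7.18% of all 32851 promoters, and the H4 core in 8 of 8 H4 promoters and 8.25% of all. The octamer was in 7 of 13 H2a and 5 of 9 H2b promoters and 1.74% of all. A CCAAT box was in 35 of 41 members and 37.4% of all, a TATA box in 25 and 13.6%, and an E2F site in 5 and 0.813%. Hist1h1b and Hist1h1c, with an r with Hist1h2ah of 0.97 and -0.01, are printed with Hist1h2ah and Hist1h4k. Each stretch is the 160 bases before the annotated start, with the motifs that lie wholly within it in capitals. The E2F site of Hist1h2ah begins at base -4 and runs past the start, so it is not marked.
Hist1h1b, chr13:21780626-21780785, minus strand: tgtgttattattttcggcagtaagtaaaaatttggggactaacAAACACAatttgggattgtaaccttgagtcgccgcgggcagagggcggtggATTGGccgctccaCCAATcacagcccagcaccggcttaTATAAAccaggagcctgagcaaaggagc
Hist1h1c, chr13:23738647-23738806, plus strand: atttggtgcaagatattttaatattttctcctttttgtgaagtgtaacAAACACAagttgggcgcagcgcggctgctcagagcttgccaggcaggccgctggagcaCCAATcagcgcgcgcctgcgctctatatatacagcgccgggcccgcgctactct
Hist1h2ah, chr13:22035644-22035803, minus strand: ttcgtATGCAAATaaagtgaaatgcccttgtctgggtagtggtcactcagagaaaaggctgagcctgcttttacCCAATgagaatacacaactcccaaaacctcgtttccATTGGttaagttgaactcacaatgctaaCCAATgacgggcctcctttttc
Hist1h4k, chr13:21750554-21750713, minus strand: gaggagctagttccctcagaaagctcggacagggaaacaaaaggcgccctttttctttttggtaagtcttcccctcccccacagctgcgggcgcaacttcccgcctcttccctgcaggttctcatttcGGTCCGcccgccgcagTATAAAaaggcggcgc
The H1 box and a CCAAT box stand in both H1 promoters, and a TATA box in that of Hist1h1b only. The H4 core was likewise present in Hist1h4k and in Hist1h4h. For Hist1h4h the r was -0.43 with Hist1h2ah and 0.49 with Hist1h2bc. A match is a description of the letters and not a bound site.

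Genes that act with histones were read from fixed lists, and 0 of them were called in any comparison. Of 30 measured S phase and DNA replication genes, 28 had a higher mean in Control than in Sham, with a median log2 difference of 0.62. In 5-ASA against Control 20 of 30 were higher, with a median of 0.05, and without 5-ASA 1 and 5-ASA 2 it was 0 of 30, with a median of -0.21. Their median r was 0.86 with Hist1h2ah and -0.19 with Hist1h2bc. Mcm2, a subunit of the replicative helicase, averaged 0.17 ± 0.17 over the 4 Sham mice, 0.80 ± 0.27 over the 6 Control mice and 0.72 ± 0.48 over the 6 5-ASA mice (mean ± SD). Cdc6, which loads that helicase, differed by 0.90 ± 0.31 (SE) between Control and Sham (adjusted p = 0.558). Pcna, the sliding clamp, had an r of 0.79 with Hist1h2ah, and Gins3, of the helicase complex, one of 0.04.

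Of 19 mitosis genes, all 19 were higher in Control than in Sham, in 5-ASA than in Control and in 5-ASA than in Sham, with medians of 0.69, 0.33 and 1.04. Without 5-ASA 1 and 5-ASA 2, 11 of 19 were higher in 5-ASA than in Control, with a median of 0.015, and 19 of 19 higher than in Sham, with a median of 0.71. Mki67, the proliferation marker, averaged 3.44 ± 0.37 over the 4 Sham mice, 4.05 ± 0.30 over the 6 Control mice and 4.39 ± 0.65 over the 6 5-ASA mice, and its r with Hist1h2ah was 0.93. Birc5, Aurka and Ube2c had r values of 0.91, 0.91 and 0.86. The histone variants outside the clusters, many of them made outside S phase too, were higher in Control than in Sham for 10 of 11, with a median of 0.18. H2aj, an H2a variant, had an r of 0.98 with Hist1h2ah, the highest of any non-member with a gene symbol, and was followed by Ube2t, a ubiquitin-conjugating enzyme of DNA crosslink repair, at 0.97. The H2aj probe was not compared in sequence with those of the members. H2az1 differed by 0.33 ± 0.15 (SE) between Control and Sham (adjusted p = 0.558). The named genes most like Hist1h2bc were Pnp2, Snrnp48 and Stradb, with an r of 0.94 each.

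Chaperones that hand histones to DNA were higher in Control than in Sham for 17 of 20, with a median of 0.21, and for 16 of 20 without Control 3 and Control 4, with a median of 0.10. Chaf1a, of the chromatin assembly factor that deposits H3 and H4 at replication forks, differed by 0.86 ± 0.31 (SE) (adjusted p = 0.558). Hjurp, the chaperone of the centromeric H3, differed by 0.42 ± 0.16 (adjusted p = 0.558), and Ssrp1 and Rbbp7 had an r of 0.87 and 0.78 with Hist1h2ah. Of the genes listed for histone mRNA processing, 12 of 14 were higher in Control, with a median of 0.16. Ncbp1, a cap-binding subunit, differed by 0.33 ± 0.13 between Control and Sham (adjusted p = 0.558). Zfp473, a zinc finger protein of the 3′-end machinery, had the smallest p of that list for 5-ASA against Control (0.55 ± 0.25, adjusted p = 0.999) and an r of 0.88 with Hist1h2ah. Without 5-ASA 1 and 5-ASA 2, fewer of these genes were higher in 5-ASA than in Control. They were 7 of 20 chaperones, 6 of 14 processing genes and 5 of 11 variants, in place of 16, 10 and 8.

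The 3 cluster genes with known polyadenylated transcripts, Hist1h1c, Hist1h2bc and Hist2h2be, differed from these lists in sign for Control against Sham, where 3 of 3 were lower (median -0.33). Without Control 3 and Control 4, 2 of 3 were lower (median -0.08). In 5-ASA against Control 3 of 3 were higher, as most genes of the other lists were (median 0.45, and 0.20 without those 2 mice). Of the testis histones Hist1h1t, Hist1h2aa and Hist1h2ba, 1 of 3 was higher in Control than in Sham. Hist1h2ba, a testis H2b, averaged 3.87 ± 0.33 over the 4 Sham mice, 3.52 ± 0.43 over the 6 Control mice and 3.92 ± 0.19 over the 6 5-ASA mice.

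Markers of other cells varied along with some of these differences. All 8 smooth muscle markers were lower in Control than in Sham (median -0.34) and all 8 higher in 5-ASA than in Control (median 0.41). Their summed level ranged from 8.69 to 9.69 in Sham, from 7.80 to 9.67 in Control and from 8.91 to 9.40 in 5-ASA. Of 6 fibroblast markers 5 were lower in Control than in Sham and 5 higher in 5-ASA than in Control, and their summed level was lowest in Control 3 and Control 4, at 6.40 and 6.59, beside 6.83 or more in the other 14 mice. Without those 2 mice 4 of 6 fibroblast markers were lower in Control than in Sham (median -0.035), and all 8 smooth muscle markers (median -0.20). The median r with Hist1h2bc was 0.49 for smooth muscle and 0.66 for fibroblast markers, and with Hist1h2ah -0.18 and -0.21. All 10 B cell markers were lower in Control than in Sham and in 5-ASA than in Control (medians -1.054 and -1.104), with summed levels of 0.87 to 5.22 in Sham, 1.08 to 5.39 in Control and 1.02 to 1.97 in 5-ASA. The 6 T cell markers had medians of -0.43 and -0.25 in these comparisons and the 5 erythroid markers 1.04 and -1.69. The summed erythroid level was 8.08 in Control 1 and 6.84 in Control 5. It was 4.67 to 5.17 in the other Control mice, beside 4.59 to 5.41 in Sham. Medians for the epithelial markers were 0.04 and -0.05, for neutrophil markers -0.01 and -0.13 and for macrophage markers 0.03 and -0.14. No marker was called, and their part in the histone differences was not tested.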

How the data were processed

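Cy3-labelled cRNA from 0.2 ug of colon RNA per mouse was hybridised to 1-colour Agilent arrays of 62976 spots, per the labels' protocols. The deposited scanner files give the intensity of each spot after the authors' background subtraction and detrending in Feature Extraction, and flags for outlying, saturated and well-above-background spots, per the file headers. The deposited value table holds 55821 rows of log2 values; it states no scale, and it matched the scanner values centred on the Sham median with r from 0.992 to 0.998, so its scale, centring and direction are inferred.

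The 75th percentile of each array, over all its non-control spots, was subtracted from log2 intensity. Spots of a probe were averaged with outlying spots left out. A probe had to stand well above background on 4 or more of 16 arrays, and the brightest was taken per gene. A limma 3.58.1 model (R 4.3.3) was fitted to the 3 groups over 24542 genes, with Benjamini-Hochberg adjustment and calls at 0.05. The fit was tested on simulated data. The members, gene lists and markers were chosen with earlier results of these data known. Members were named in full where they had the 2 smallest p of a class in a comparison or its brightest probe, or probes of opposite sign, and up to 4 genes per list by smallest p and highest mean; likeness used each class's brightest member. List genes that did not pass the filter, such as Ccne2, Npat and Ngp, were left out. Probe coordinates are those of mm9, per the file headers. RefSeq (GRCm38.p6) gave the current symbols of 46 members and the promoters of 41. P-values cover the spread between mice. Same-numbered mice did not vary together in every pair (r from -0.21 to 0.61 for Control against Sham), so the replicate number was used as a block only among the alternatives. Alternatives covered background correction, scaling, filter, probe choice, slide, array row, outer spot rows and each mouse, or the mice that stood apart, left out.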

Additional observations from a re-analysis of the deposited data

Results flagged for a closer look

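Within a group, the highest or lowest mouse was compared with its neighbour by Dixon's gap test. Of 162 groups of values (48 members and 6 medians in 3 groups), 18 passed it, where chance gives about 1 in 20, and the values are not independent because members vary together.

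Control 4 was the high mouse in 12 of these 18. Its levels were 7.76 for Hist1h2ah, 7.47 for Hist1h2af, 7.30 for Hist1h2ag, 7.30 for Hist1h2ak, 7.06 for Hist1h2an, 7.14 for Hist2h2aa2, 7.17 for Hist2h2ac, 5.58 for Hist1h4k, 2.42 for Hist1h1b and -1.54 for Hist1h3g, each above the other 5 Control mice. The H2a median of Control 4 was 0.25 and its H3 median 0.14, after centring each gene. In Control 4 the summed level of the B cell markers was 5.39, of the T cell markers 3.43, of the neutrophil markers 4.43 and of the macrophage markers 5.44, each the highest of the 16 mice. That of the mitosis genes was 6.77, beside 6.73 in Control 3. Their part in the histone values was not tested.

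Sham 3 was high in Hist1h2ba, at 4.35, and in Hist1h2bm, at 5.04. Sham 4 was low in Hist1h4h, at -2.62. Control 3 was low in Hist1h4i, at 0.78. 5-ASA 1 was high in Hist1h2ac, at -1.33. Hist1h1t was -1.24 in Control 6, with the other Control mice at -4.31 or below, and the difference of this testis gene between Control and Sham was -0.15 without that mouse.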

How the results depend on the processing

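Under every alternative run, 0 histone cluster genes were called in any comparison, by limma. The median difference kept its sign throughout. Leaving out 1 mouse at a time it ranged from 0.08 (without Sham 3) to 0.27 for Control against Sham, from 0.21 (without 5-ASA 2) to 0.40 for 5-ASA against Control and from 0.36 (without 5-ASA 1) to 0.58 for 5-ASA against Sham. With a replicate block the medians were 0.27, 0.32 and 0.53, and the block changed no call. Without 5-ASA 1 and 5-ASA 2, an alternative chosen after seeing the data, the median of 5-ASA against Control was 0.045, a change that follows from leaving out the 2 highest mice.

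Single genes with small differences changed sign. The difference of Hist2h2aa2, Control against Sham, was -0.060 with the mean of its probes, because its second probe has the opposite sign. That of Hist1h4i, Control against Sham, was 0.022 on slide 1 and 0.00466 with the array row as a covariate, and leaving out 1 mouse it ranged from -0.17 to 0.045. That of Hist1h2bc, 5-ASA against Sham, was -0.025 on slide 2, and leaving out 1 mouse it ranged from -0.051 (without Sham 4) to 0.16. That of Hist1h1c, 5-ASA against Sham, was -0.0013 without 5-ASA 4, with a range of leave-one-out values up to 0.21. The cause of these was not tested. The H2b median for 5-ASA against Sham was 0.14, and 0.38 with the row as a covariate. Without the outer 12 spot rows the count over all genes called for Control against Sham was 0 rather than 14. With no filter on dim probes, 2953 of 34945 genes were called for 5-ASA against Control, rather than 0. Members dim on many arrays, such as Hist1h2bb and Hist1h2al, limit what can be said of them.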
